A study of Mus musculus with 2 samples.

Results

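A set of 10 genes of natural killer (NK) cells and cytotoxic T cells was followed in whole-lung RNA of mice in which Foxf1, a forkhead transcription factor gene, was targeted in the endothelium. The set was defined by gene symbol and holds Gzma, Gzmb, Prf1, Nkg7, Klrb1c, Klrd1, Ncr1, Cd3e, Cd8a and Lck, out of 22072 genes in the deposited tables, and all 10 were found. The knockout mice carried floxed Foxf1 alleles together with Pdgfb-iCreER, an inducible Cre recombinase driven by the Pdgfb promoter and active in endothelial cells. The control mice carried floxed Foxf1 alleles without Cre, on the same C57/BL6 background. Each group is 1 library made from the pooled lung RNA of several mice, and no difference below has a replicate check. Effects of Cre itself cannot be told apart from those of Foxf1 loss, and no source used here states the age of the mice or the schedule of induction.

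NK cells and cytotoxic T cells kill infected or altered cells by releasing the content of secretory granules. Perforin opens pores in the target membrane and granzymes, which are serine proteases, pass into the target and start cell death. NK cells decide by germline-encoded activating and inhibitory receptors, whereas T cells recognise peptide through a receptor that signals through CD3 chains and the kinase LCK. In the lung, NK cells are found largely in the capillary bed.

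The sequences upstream of the 4 granule genes are shown here because 3 of them are the members whose ratio intervals exclude equality and Prf1, the other gene of the group, is not among those. They were taken from RefSeq promoters of GRCm38.p6, in the direction of transcription, and each ends at the start of the gene or before the first base of any transcript of that gene that GENCODE places in the window. Capitals mark the RUNX core TGTGGT or its reverse complement ACCACA, and in Prf1 also the ETS core GGAAGT or its reverse complement ACTTCC.
Gzma (chr13:113100982-113101231, minus strand): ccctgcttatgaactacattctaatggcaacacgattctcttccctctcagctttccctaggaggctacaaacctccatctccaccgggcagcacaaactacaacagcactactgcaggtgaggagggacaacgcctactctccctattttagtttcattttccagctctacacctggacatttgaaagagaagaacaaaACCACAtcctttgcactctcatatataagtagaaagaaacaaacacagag
Gzmb (chr14:56262335-56262584, minus strand): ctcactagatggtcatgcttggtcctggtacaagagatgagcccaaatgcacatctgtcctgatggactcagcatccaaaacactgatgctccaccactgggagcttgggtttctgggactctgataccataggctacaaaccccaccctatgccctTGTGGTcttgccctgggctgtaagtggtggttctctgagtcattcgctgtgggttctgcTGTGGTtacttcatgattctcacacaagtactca
Prf1 (chr10:61297586-61297832, plus strand): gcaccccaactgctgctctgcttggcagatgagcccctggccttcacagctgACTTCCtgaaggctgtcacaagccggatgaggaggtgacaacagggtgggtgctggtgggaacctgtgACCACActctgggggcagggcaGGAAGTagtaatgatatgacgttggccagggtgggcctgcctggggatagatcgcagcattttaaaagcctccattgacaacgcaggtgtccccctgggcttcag
Nkg7 (chr7:43436888-43437072, plus strand): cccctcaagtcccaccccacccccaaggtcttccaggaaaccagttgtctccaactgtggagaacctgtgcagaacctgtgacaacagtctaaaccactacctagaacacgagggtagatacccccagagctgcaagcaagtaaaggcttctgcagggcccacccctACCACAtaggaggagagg

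The RUNX core stood within 250 bases upstream of the start in all 4 granule genes, at 50 bases in Gzma, at 93 and 34 bases in Gzmb, at 130 bases in Prf1 and at 83 bases in Nkg7. With Klrb1c, Ncr1 and Lck it was found in 7 of the 9 members that the promoter table holds, against 14.0% of 32851 mouse promoters. A member counts if any of its promoters matched, and Ncr1 and Lck have separate entries, whereas the shares are taken per promoter. The Klrb1c match lay in a stretch that a GENCODE transcript of the gene covers. Its longer form TGTGGTT, which contains the core, was found in 4 of the 9 and in 4.40% of promoters. The ETS core was found in 4 of the 9 members and in 19.7% of promoters, and its longer form CCGGAAGT in none of the 9 and in 2.88%. The ETS matches in Klrb1c and Cd3e also lay at least partly in such covered stretches. The T-box core GGTGTGA, like its longer form AGGTGTGA, was found in Nkg7 alone, in the last 65 bases before its RefSeq start, which are not printed because a GENCODE transcript begins there, against 3.33% and 1.12% of promoters. Both strands were searched. A match is a run of letters, not a shown binding site. Whether the matches bear on the member values was not tested.

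Transcripts took up an estimated 10.4 M reads in the knockout library, of which about 491 fell on the 10 members, against 13.2 M reads in the control library, of which about 769 did. Foxf1, listed as Foxf1a, had 15.7 FPKM (fragments scaled to transcript length and library size) in the knockout pool and 72.1 FPKM in the control pool. No source used here states which part of the gene the floxed alleles delete. Of the lung's own markers, Sftpc, the surfactant protein C gene of alveolar type 2 cells, stood at 13793 FPKM in the knockout pool and 15925 FPKM in the control pool. Scgb1a1, the secretoglobin gene of club cells, stood at 22774 FPKM in the knockout pool and 35265 FPKM in the control pool, 1.55-fold lower (1.54 to 1.56), and its part in the member values was not tested. The FPKM of a gene is summed over its transcripts throughout. Intervals are 95% intervals that cover counting error only, computed from approximate read numbers.

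All 10 members were low-abundance transcripts in whole lung, between 1.005 and 8.04 FPKM in the knockout pool and between 1.03 and 12.6 FPKM in the control pool. Gzma was the most abundant in both, followed by Nkg7, Klrd1 and Lck, and Cd8a and Klrb1c were the least abundant in both. In the control pool the counting intervals separated Gzma from Nkg7 and Nkg7 from Klrd1. In the knockout pool no neighbours in the order were separated. Gzmb had rank 8 in the knockout pool, after Cd3e, Ncr1 and Prf1, and rank 5 in the control pool, before them, though the intervals of these neighbours overlapped.

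**Figure D1:**
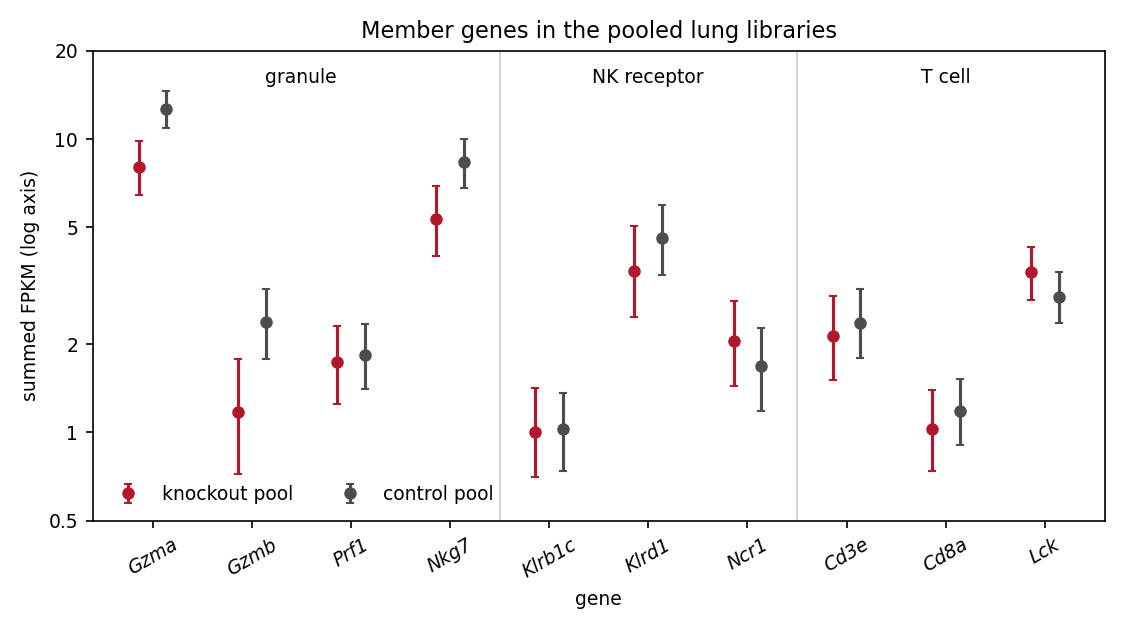
Summed FPKM (log axis) of each member in the knockout pool (red, left) and the control pool (grey, right), 1 pooled library each, with 95% Poisson counting intervals. Gzma and Gzmb lay lower in the knockout pool without overlap of these intervals, which for Gzmb nearly touch, and the intervals of Nkg7 and the other 7 members overlapped.

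The granule genes were lower in the knockout pool with the exception of perforin, whose value was near equality. Gzma encodes granzyme A, a trypsin-like granzyme, and lies on chromosome 13 from 113884035 to 113891189 (mm9). It had 8.04 FPKM (6.46 to 9.88) in the knockout pool from about 90 reads and 12.6 FPKM (10.9 to 14.6) in the control pool from about 183 reads. Gzma was thus 1.57-fold lower (1.22 to 2.05), and the intervals of the pools did not overlap. Gzmb encodes granzyme B, which cleaves after aspartate and activates caspases, on chromosome 14 from 56877695 to 56881097. Its level was 1.17 FPKM (0.720 to 1.78) in the knockout pool and 2.37 FPKM (1.78 to 3.07) in the control pool, from about 21 knockout and 55 control reads. At 2.03-fold lower (1.21 to 3.53) it showed the largest ratio among the members and rested on the fewest reads.

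Nkg7 encodes a granule membrane protein that takes part in granule release, on chromosome 7 from 50692508 to 50693616. It had 5.32 FPKM (3.996 to 6.90) in the knockout pool and 8.32 FPKM (6.82 to 9.99) in the control pool, from about 55 knockout and 111 control reads, and was 1.56-fold lower (1.12 to 2.20). Prf1, the perforin gene, lies on chromosome 10 from 60760584 to 60767011. It stood at 1.73 FPKM (1.253 to 2.298) in the knockout pool and 1.84 FPKM (1.41 to 2.35) in the control pool, 1.06-fold lower with a ratio interval on both sides of equality (0.624 to 1.40). The remaining pair of granzymes above 0 was low as well: Gzmm had 0.317 FPKM in the knockout pool and 1.10 FPKM in the control pool, and Gzmk had 0.101 FPKM in knockout and 0.477 FPKM in control, from 1 knockout and 6 control reads. They are under the floor of 1 FPKM and are named after their values were seen. Reads of these 4 granzymes together numbered about 117 in the knockout pool and 268 in the control pool, 1.77-fold lower (1.42 to 2.22). Another 6 granzyme genes, Gzmc to Gzmg and Gzmn, were listed at 0 in both pools.

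The 3 receptor genes that mark NK cells did not differ beyond counting error. Klrb1c, which encodes the NK1.1 antigen, lies on chromosome 6 from 128728503 to 128738659 and had 1.005 FPKM (0.704 to 1.42) in the knockout pool and 1.03 FPKM (0.738 to 1.36) in the control pool, a ratio of 0.979 (0.620 to 1.60). The reads behind this sum were assigned to a different transcript record in each library. The record of 2623 bases was given nearly all of about 34 reads in the knockout pool. The record of 2632 bases was given nearly all of about 44 reads in the control pool. Both records cover the same span and are nearly equal in length, and whether the assignment reflects the transcripts present was not tested. Klrd1 encodes CD94, the partner chain of the NKG2 receptors, on chromosome 6 from 129543506 to 129548670. Its values were 3.55 FPKM (2.48 to 5.06) in the knockout pool and 4.604 FPKM (3.43 to 5.96) in the control pool, 1.30-fold lower with a ratio interval of 0.495 to 1.24. Ncr1 encodes NKp46, an activating receptor nearly confined to NK cells and related innate lymphocytes, on chromosome 7 from 4289326 to 4296766. Its value lay above equality, at 2.05 FPKM (1.44 to 2.80) in the knockout pool and 1.68 FPKM (1.19 to 2.26) in the control pool, 1.22-fold higher (0.765 to 1.96), and turned to a log2 ratio of -0.12 when taken relative to pan-leukocyte genes.

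The T cell members were near equality too. Cd3e, a signalling chain of the T cell receptor complex, lies on chromosome 9 from 44806826 to 44817673 and had 2.13 FPKM (1.51 to 2.91) in the knockout pool and 2.36 FPKM (1.79 to 3.08) in the control pool, from about 39 knockout and 56 control reads, a ratio of 0.902 (0.581 to 1.38). Cd8a, the coreceptor chain of cytotoxic T cells, lies on chromosome 6 from 71323421 to 71329165 and had 1.03 FPKM (0.737 to 1.39) in the knockout pool and 1.19 FPKM (0.906 to 1.52) in the control pool, from about 41 knockout and 61 control reads, a ratio of 0.866 (0.569 to 1.31). Lck, the kinase that phosphorylates the CD3 chains, lies on chromosome 4 from 129225588 to 129250885. It had 3.51 FPKM (2.83 to 4.28) in the knockout pool and 2.90 FPKM (2.36 to 3.52) in the control pool, 1.21-fold higher (0.903 to 1.61). The Lck difference lay in 1 shorter-span record of 2171 bases, which held about 18 reads in the knockout pool and was near 0 in the control pool. The main Lck record had 2.87 FPKM in the knockout pool and 2.90 FPKM in the control pool, so that its log2 ratio was -0.01, and relative to pan-leukocyte genes the gene stood at -0.09.

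**Figure D2:**
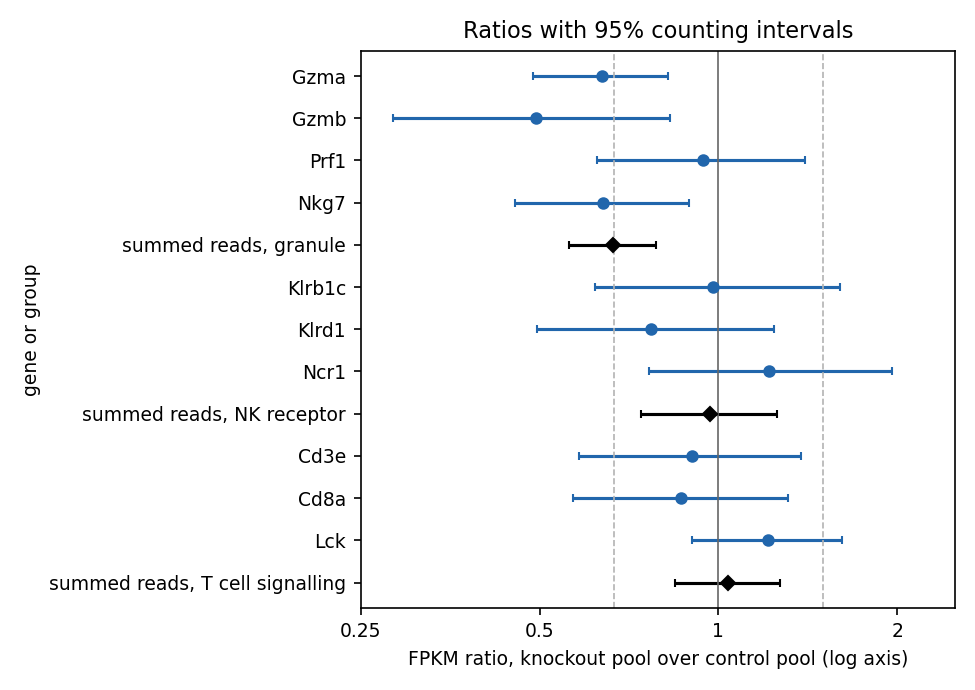
Ratio of FPKM, knockout pool over control pool (log axis), for each member (blue) and for the summed reads of each role (black diamonds), with 95% counting intervals; dashed lines mark 1.5-fold. The intervals of Gzma, Gzmb, Nkg7 and the granule sum lie below 1, and those of all other members and sums include it.

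Summed over roles, the 4 granule members had about 212 reads in the knockout pool and 412 in the control pool, 1.51-fold lower (1.27 to 1.79), a sum that Gzma and Nkg7 dominate. The 3 NK receptor members had 104 reads in the knockout pool and 139 in the control pool, 1.03-fold lower, where the interval runs from 1.35-fold lower to a value on the other side of equality. For the 3 T cell members the reads numbered 175 in the knockout pool and 218 in the control pool, 1.04-fold higher (0.844 to 1.27). The roles were grouped with the values known. In whole-lung RNA, fewer cells of a type and less RNA per cell cannot be told apart.

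On the log2(FPKM + 1) scale, 2 of the 10 members, Gzmb and Gzma, were at least 1.5-fold lower in the knockout pool, where 4.63% of 12929 genes over a floor of 1 FPKM (mean of the pools) and 4.41% of the 9506 genes between 1 and 20 FPKM were. None was at least 1.5-fold higher, where 9.41% and 9.70% of these genes were. Log2 ratios were -0.64 for Gzmb, -0.59 for Gzma and -0.56 for Nkg7, so that Gzma passed this threshold narrowly and Nkg7 narrowly missed it. By plain FPKM ratio all 3 were at least 1.5-fold lower, 3 of 10 members against 6.94% of the genes over the floor and 7.40% of those between 1 and 20 FPKM. By that ratio 12.2% and 13.4% of genes, and none of the members, were at least 1.5-fold higher. Counting intervals lay entirely below 1 for 3 of 10 members, against 21.9% and 20.2% of genes, and entirely above 1 for 0 of 10 members against 33.3% and 28.0% of genes. The median log2 ratio of the members was -0.11, against 0.05 over all 12929 genes. Among the 9506 genes with a mean FPKM of 1 to 20, which spans the members, 3.66% had a lower log2 ratio than Gzmb, 4.21% a lower one than Gzma and 4.77% a lower one than Nkg7.

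**Figure D3:**
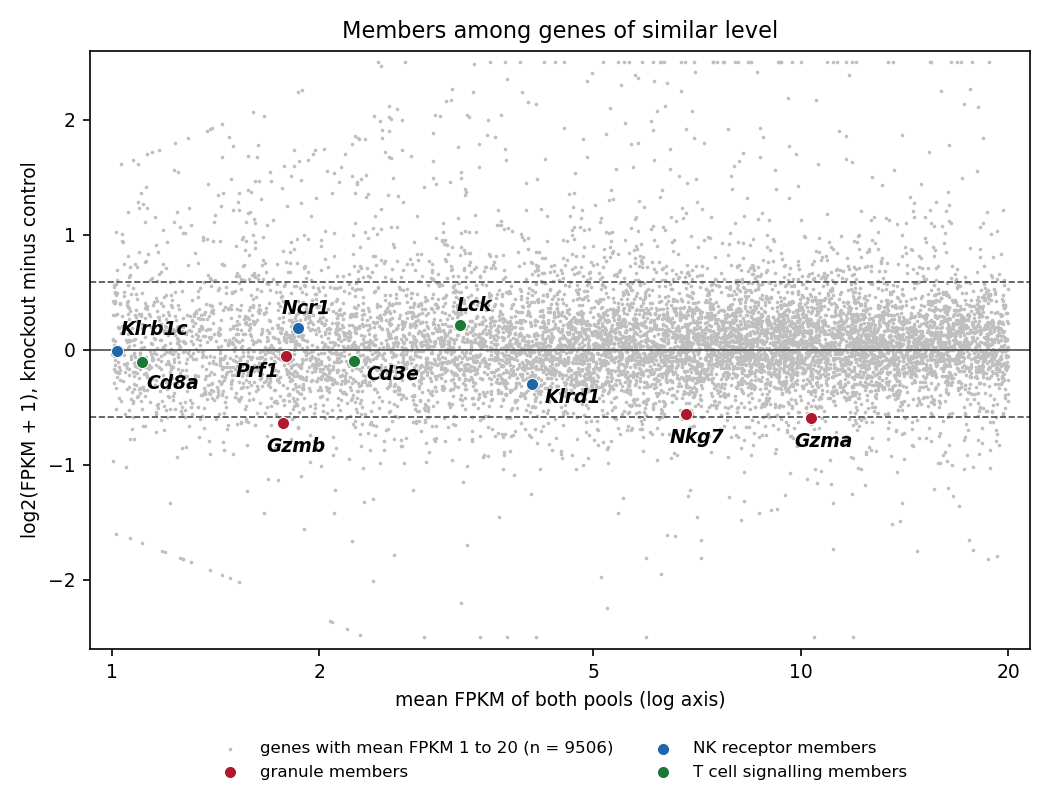
Log2(FPKM + 1) of the knockout pool minus that of the control pool against mean FPKM (log axis) for 9506 genes (grey) and the members (coloured by role); dashed lines mark 1.5-fold, and genes beyond 2.5 are drawn at the edge. Gzmb, Gzma and Nkg7 lie at the lower dashed line and the other 7 members lie between the lines.

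Set against each other within a library, the granule genes did not part from perforin beyond counting error. Gzma had 4.64 times the FPKM of Prf1 in the knockout pool and 6.87 times in the control pool. The ratio of these quotients was 0.678, with an interval of 0.418 to 1.10 that includes equality. Against Ncr1, Gzma stood at 3.93 times in the knockout pool and 7.52 times in the control pool, a ratio of quotients of 0.519 (0.301 to 0.893). Against the other NK receptor members the ratio for Gzma included equality, at 0.805 (0.475 to 1.38) over Klrd1 and 0.637 (0.370 to 1.10) over Klrb1c, as it did over Cd3e at 0.707 (0.426 to 1.18). Ncr1 is the NK receptor member whose own value lay above equality. For Gzmb the ratio against Ncr1 was 0.404 (0.194 to 0.827) and against Prf1 0.528 (0.264 to 1.03), and for Nkg7 it was 0.523 (0.291 to 0.939) and 0.684 (0.401 to 1.16). Gzma and Nkg7 kept nearly the same proportion, 1.51 in the knockout pool and 1.52 in the control pool. These pairs were picked after the values were seen, and their intervals compare the 2 libraries only.

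Related genes were taken from lists of the same pathways. Of 18 other effector and granule genes, 8 exceeded the floor, 1 of them at least 1.5-fold lower and 1 higher, and the median log2 ratio was 0.13. Tnfsf10, which encodes the death ligand TRAIL, was the lowest, at 19.7 FPKM in the knockout pool and 35.0 FPKM in the control pool, 1.77-fold lower (1.66 to 1.90). Its reads, about 1243 in the knockout pool and 2847 in the control pool, far exceeded those of Gzma. Which lung cells they came from was not tested. Srgn, which encodes the granule proteoglycan serglycin of many leukocytes and endothelium, was the highest, at 196 in knockout and 116 FPKM in control, 1.69-fold higher (1.59 to 1.80). The abundant lysosomal gene Lamp1 had 321 FPKM in the knockout pool and 310 FPKM in the control pool. None of the 8 genes of the granule release machinery passed 1.5-fold, and their median was -0.03. They ranged from Vamp8, at 133 in knockout and 159 FPKM in control, to Vamp7, at 13.3 in knockout and 11.6 FPKM in control, with Stxbp2 at 20.3 FPKM in either pool.

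Of 31 other NK receptor genes, 24 were under the floor. The 7 over it had a median of -0.23, with 2 at least 1.5-fold lower and 0 higher. Cd226, the activating receptor DNAM-1 of NK and T cells, had 1.03 FPKM in the knockout pool and 2.12 FPKM in the control pool, 2.07-fold lower (1.34 to 3.15). Slamf7, a receptor of NK and plasma cells, had 0.919 in knockout and 1.91 FPKM in control, 2.08-fold lower (1.46 to 2.95). Klra2 was the most abundant and the highest, at 3.67 in knockout and 3.51 FPKM in control, and Klrb1b had 1.53 in knockout and 1.97 FPKM in control. The 12 Klra (Ly49) records are related genes, between some of which reads can be split. They summed to 6.88 FPKM in the knockout pool and 7.17 FPKM in the control pool, a read ratio of 0.968. That ratio rests mostly on Klra2, with about 84 of 130 reads in the knockout pool and 103 of 174 in the control pool.

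Of the receptor adaptors, 6 of 8 exceeded the floor, their median was 0.26, and 2 were at least 1.5-fold higher and 0 lower. Fcer1g, at 71.9 FPKM in the knockout pool and 40.7 FPKM in the control pool, and Tyrobp, at 80.8 in knockout and 53.4 FPKM in control, are adaptors that macrophages and neutrophils share with NK cells. Cd247, the zeta chain of T and NK cells, was the lowest, at 5.80 in knockout and 7.81 FPKM in control, 1.35-fold lower (1.08 to 1.67). Among 20 transcription factor and cytokine receptor genes found, 15 exceeded the floor, their median was 0.06, and 1 was lower and 1 higher. Prdm1, which encodes the terminal differentiation factor BLIMP1, had 1.99 FPKM in the knockout pool and 3.59 FPKM in the control pool, 1.80-fold lower (1.46 to 2.22). Nfil3, a factor required for NK cell development, had 4.27 in knockout and 1.79 FPKM in control, 2.38-fold higher (1.70 to 3.30). Runx3, a factor of cytotoxic lymphocytes, had 1.30 FPKM in the knockout pool and 0.821 FPKM in the control pool, 1.59-fold higher by plain ratio (1.08 to 2.32), and did not pass on the log2 scale. The abundant Id2 (64.8 in knockout and 54.2 FPKM in control) and Ets1 (58.4 in knockout and 42.7 FPKM in control) are expressed well beyond lymphocytes. Which lung cells the Prdm1 and Nfil3 reads came from was not tested either, so their values cannot be assigned to NK or T cells.

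None of the 15 other T cell receptor signalling genes over the floor, of 22, passed 1.5-fold on the log2 scale, and their median was -0.06. Zap70, the kinase that acts after LCK, was the lowest, at 1.39 FPKM in the knockout pool and 2.40 FPKM in the control pool, 1.73-fold lower by plain ratio (1.16 to 2.56). Lcp2, which encodes the adaptor SLP-76, was the highest, at 4.90 in knockout and 3.37 FPKM in control. Csk (26.9 in knockout and 26.8 FPKM in control) and Fyn (24.8 in knockout and 19.2 FPKM in control) were the most abundant. Reads of Cd3d, Cd3e, Cd3g and Cd247 together numbered about 249 in the knockout pool and 401 in the control pool, a read ratio of 0.803 and between 1.06-fold and 1.47-fold lower by its interval, and those of Cd8a and Cd8b1 numbered 98 in knockout and 153 in control, a read ratio of 0.826 with an interval that includes 1. Of 13 T cell identity genes, 6 exceeded the floor and their median was -0.16. Gata3, a factor of helper T cells, group 2 innate lymphoid cells and some epithelia, was the lowest, at 0.892 FPKM in the knockout pool and 3.74 FPKM in the control pool, 4.196-fold lower (2.91 to 6.06). Tcf7 (12.2 in knockout and 11.7 FPKM in control) was both the highest and the most abundant, and Ccr7 had 4.19 in knockout and 4.34 FPKM in control.

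Chemokine, receptor and adhesion genes of lymphocyte traffic had a median of 0.18 over 20 of 26 genes, 1 at least 1.5-fold lower and 3 higher. The lowest was Ccl5, a chemokine made by NK and cytotoxic T cells, at 13.1 FPKM in the knockout pool and 21.9 FPKM in the control pool, 1.68-fold lower (1.29 to 2.17). The highest was Cxcl10, an interferon-induced chemokine that draws CXCR3-bearing lymphocytes, at 5.62 in knockout and 1.20 FPKM in control, 4.67-fold higher (2.85 to 7.97). Icam1 (227 in knockout and 193 FPKM in control) and S1pr1 (118 in knockout and 124 FPKM in control), both expressed by endothelium, were the most abundant. Itgb2 (40.1 in knockout and 21.9 FPKM in control) and Cx3cr1 (5.73 in knockout and 3.04 FPKM in control), which myeloid cells also express, were the others at least 1.5-fold higher. S1pr5, a receptor that guides NK cell exit from lymphoid tissue, stood at 1.21 FPKM in either pool. Of the cytokine genes that act on NK cells, 4 of 8 exceeded the floor, their median was -0.13 and none passed 1.5-fold on the log2 scale, from Il15ra, at 4.21 in knockout and 5.61 FPKM in control, to Il18, at 17.7 in knockout and 11.5 FPKM in control. Il15, the survival cytokine of NK cells, had 3.10 in knockout and 2.88 FPKM in control. S1pr5 and Il15 are named after their values were seen. Ligands of NK receptors had a median of 0.11 over 11 genes. Ulbp1, which encodes a ligand of the activating receptor NKG2D, was the highest, at 3.78 FPKM in the knockout pool and 0.904 FPKM in the control pool, 4.18-fold higher (2.59 to 6.85). H2-T23 was the lowest, at 61.1 in knockout and 75.9 FPKM in control, and B2m (1312 in knockout and 1218 FPKM in control) and H2-K1 (530 in knockout and 468 FPKM in control) were the most abundant.

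**Figure D4:**
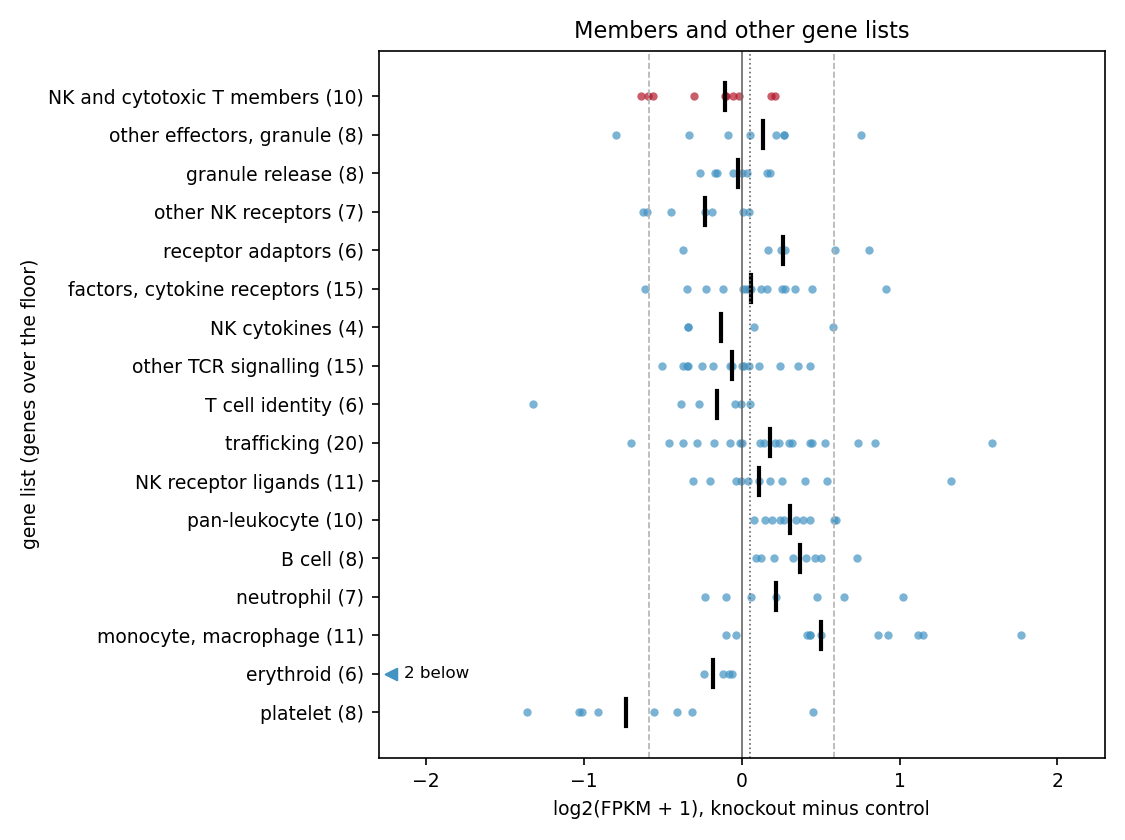
Log2(FPKM + 1) of the knockout pool minus that of the control pool for genes over the floor (points) in the members (red) and 16 other lists (blue), with list medians (black bars); the dotted line is the median of all genes and dashed lines mark 1.5-fold. The members have a median of -0.11 and the pan-leukocyte, B cell and macrophage lists lie to the right of it.

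Transcripts of other blood cells moved in several directions between the same pools. All 10 pan-leukocyte genes lay above equality, where 7341 of all 12929 genes over the floor did. Their median was 0.31 and their summed level was 298 FPKM in the knockout pool and 225 FPKM in the control pool. Ptprc, which encodes CD45, had 19.8 in knockout and 17.8 FPKM in control, 1.11-fold higher (1.03 to 1.20). Laptm5 (76.8 in knockout and 56.6 FPKM in control) was the most abundant, Cd52 (59.97 in knockout and 39.2 FPKM in control) the highest and Ikzf1 (4.77 in knockout and 4.47 FPKM in control) the lowest. Against Ptprc, the quotient ratio was 0.576 (0.438 to 0.754) for Gzma, 0.447 (0.256 to 0.756) for Gzmb and 0.580 (0.409 to 0.816) for Nkg7. The same ratio was 1.11 (0.690 to 1.79) for Ncr1 and 0.850 (0.562 to 1.28) for Prf1, and the intervals of Klrb1c, Klrd1, Cd3e, Cd8a and Lck against Ptprc also included 1.

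B cell markers lay above equality in 8 of 8 genes over the floor, against 7341 of all 12929 such genes. Their median was 0.37 and their sums were 55.0 FPKM in the knockout pool and 41.6 FPKM in the control pool. These markers ranged from Cd79a (13.0 in knockout and 12.1 FPKM in control) to Fcer2a (3.05 in knockout and 1.44 FPKM in control), with Cd79b the most abundant (15.97 in knockout and 11.0 FPKM in control). Monocyte and macrophage markers had a median of 0.50, with 5 of 11 at least 1.5-fold higher and sums of 3968 in knockout and 3921 FPKM in control, most of it Lyz2 (3600 in knockout and 3698 FPKM in control), followed by Ly6c2 (60.7 in knockout and 44.6 FPKM in control). They ranged from Csf1r (31.5 in knockout and 33.9 FPKM in control) to Marco, a scavenger receptor of macrophages (15.4 in knockout and 3.81 FPKM in control). Neutrophil markers had a median of 0.22 and summed to 96.0 FPKM in the knockout pool and 69.5 FPKM in the control pool. S100a8 (36.6 in knockout and 25.9 FPKM in control) and S100a9 (34.7 in knockout and 21.7 FPKM in control) were the most abundant, Retnlg (7.48 in knockout and 3.17 FPKM in control) the highest and Fpr1 (8.66 in knockout and 10.4 FPKM in control) the lowest. For platelets, 4 of 8 markers were at least 1.5-fold lower, the median was -0.73 and the sums were 35.7 FPKM in the knockout pool and 57.4 FPKM in the control pool, from Ppbp (9.09 in knockout and 24.9 FPKM in control) to Pf4 (17.4 in knockout and 12.5 FPKM in control). Of the erythroid genes, Hba-a1 had 376 in knockout and 393 FPKM in control and Hbb-b1 had 149 in knockout and 158 FPKM in control, while Hba-a2 and Hbb-b2, the 2 of 6 called lower, share near-identical copies between which reads can be split. Mast cells and basophils can also hold granzyme B. Of their 10 markers Kit alone was over the floor (16.4 in knockout and 47.3 FPKM in control), far above the other 9. Which lung cells the Kit reads came from was not tested, so its value cannot be read as one of mast cells or basophils. Tpsb2 and Tpsab1 were listed at 0 in both pools. Among those under the floor, Cpa3 (0.578 in knockout and 0.245 FPKM in control) and Fcer1a (0.147 in knockout and 0 in control) lay higher in the knockout pool. Cma1 lay near equality (0.557 in knockout and 0.578 FPKM in control). Mcpt4 lay lower (0.148 in knockout and 0.406 FPKM in control). Ms4a2 (0.129 FPKM in control), Prss34 (0.0984) and Mcpt8 (0.0676) were listed at 0 in the knockout pool. Each gene under the floor rested on about 11 reads or fewer per pool. The part of blood cell content in the member values was not tested.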

How the data were processed

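RNA of pooled whole lungs was compared between 1 knockout and 1 control library, grouped by the genotype in the labels. The authors deposited FPKM and coverage for 28107 RefSeq transcripts per library, per the file headers. Per the submitters' processing notes, the build was mm9, and DESeq was among the tools, in a role they leave unstated. The aligner was not given in the sources used here, nor was the program that computed FPKM. FPKM divides by the library total, so abundant transcripts shift all other values.

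FPKM was summed over the transcripts of a symbol. A log2 ratio is the knockout value of log2(FPKM + 1) less the control value, which understates differences of low genes, and folds are plain FPKM ratios. The floor is a mean FPKM of 1. Reads were approximated as coverage times length divided by the bases that 1 read adds, 47.6 for the knockout and 47.5 for the control library, the median of the lowest peak (30 to 70 bases) over genes with 1 transcript. Ratio intervals are exact conditional (Clopper-Pearson), centred on the FPKM ratio, levels have exact Poisson intervals, and quotient ratios have exact conditional odds ratio intervals, all at 95% and for counting error only. A transcript of 2000 bases with 10 reads has 0.392 FPKM at the knockout depth and 0.304 FPKM at the control depth. The interval step was tested on simulated data. No p-value was computed. Coordinates are printed 1-based: end minus start gave the record's length for 3284 records, and that plus 1 for 0.

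The members and the 19 other lists were chosen with earlier results of these data known. Of their 258 genes outside the members, 4 were not matched by symbol. Named are all members and, per list, the genes over the floor with the highest and lowest log2 ratio and the 2 most abundant ones, with genes past 1.5-fold in the NK and T cell lists. A planned comparison of granzyme proteins was not run. Alternatives changed the pseudocount, the floor, the scaling, the sum over transcripts, the status filter and the fold threshold. Python 3.11.15, numpy 2.4.6, pandas 2.3.3, scipy 1.17.1 and matplotlib 3.10.9 were used.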

Additional observations from a re-analysis of the deposited data

How the results depend on the processing

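Gzma, Gzmb and Nkg7 were lower in the knockout pool under every alternative tried, with log2 ratios of -0.90 to -0.50 for Gzma, -1.02 to -0.37 for Gzmb and -0.87 to -0.44 for Nkg7. The count of members at least 1.5-fold lower was 2, and it was 0 with a pseudocount of 3, 0 at a threshold of 2-fold, 1 with a floor of 5 FPKM (Gzma and Nkg7 were then the members left) and 4 relative to the median of pan-leukocyte genes. The count of members at least 1.5-fold higher was 0 under every alternative. Nkg7 passed the threshold under 5 of 11 settings. The median over members, -0.11, was -0.58 with the floor of 5 FPKM, from fewer genes, and -0.41 relative to pan-leukocyte genes, which subtracts 0.31 from every value. By the same scaling, genes of the whole table at least 1.5-fold apart were 1995 lower and 602 higher, against 599 lower and 1217 higher as reported. Of the 19 other lists, 9 had a median below 0, 7 with no floor, 3 with the floor of 5 FPKM and 16 relative to pan-leukocyte genes. With the most abundant transcript only, Klrb1c had a log2 ratio of -1.02 instead of -0.02, since its reads were assigned to a different record in each library. No paired analysis was possible because each genotype has 1 library. Members had 21 to 183 reads per library, and the ratio intervals of all members but Gzma, Gzmb and Nkg7 include equality.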

Other observations

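Group 2 innate lymphoid cells share several genes with NK and T cells, and 3 of their 9 listed genes were over the floor. Rora, which encodes a nuclear receptor of these cells and of many others, had 1.20 FPKM in the knockout pool and 2.68 FPKM in the control pool, 2.23-fold lower (1.40 to 3.67). Areg, which encodes the growth factor amphiregulin, had 6.58 FPKM in the knockout pool and 4.45 FPKM in the control pool, 1.48-fold higher (1.10 to 1.99), and Cxcr6 had 1.40 in knockout and 1.92 FPKM in control. Il13, a defining cytokine of these cells, was listed at 0 in both pools, and Il1rl1 had 0.549 FPKM in the knockout pool and 0.897 FPKM in the control pool. Of the plasmacytoid dendritic cell genes, Bst2 (97.7 in knockout and 73.8 FPKM in control) was the highest and most abundant, followed in abundance by Tcf4 (26.3 in knockout and 23.5 FPKM in control), and Ly6d (7.01 in knockout and 7.03 FPKM in control) the lowest, while the defining marker Siglech had 0.652 FPKM in the knockout pool and 0.775 FPKM in the control pool.

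Of 73 genes of the 10 NK and T cell lists that were under the floor, 7 had counting intervals that excluded equality, 5 lower and 2 higher in the knockout pool, and all 7 are given here. The share among all genes under the floor was not computed, so these counts have no background to be read against. Eomes, which encodes a T-box factor of NK cells, had 0.162 FPKM in the knockout pool and 0.546 FPKM in the control pool, 3.37-fold lower (1.45 to 8.01). Gzmm was 3.48-fold lower (1.33 to 12.0), Klrc3 4.68-fold (1.03 to 42.8), Tox 2.33-fold (1.11 to 6.44) and Bcl11b 1.51-fold (1.01 to 2.24). Klrc3 rested on about 2 knockout and 12 control reads, and the related Klrc1 and Klrc2 lay above equality. Reads of Klrc1, Klrc2 and Klrc3 together numbered about 18 in knockout and 27 in control, 1.15-fold lower with an interval that includes equality. Sh2d1a, which encodes the adaptor SAP, had 0.932 FPKM in the knockout pool and 0.220 FPKM in the control pool, from about 10 knockout and 3 control reads, 4.24-fold higher (1.11 to 24.3). Ifng, the interferon gamma gene, had 0.347 FPKM in the knockout pool from about 5 reads and was listed at 0 in the control pool. Tbx21, which encodes T-bet, a factor related to Eomes, had 0.703 FPKM in the knockout pool and 0.785 FPKM in the control pool, 1.12-fold lower with an interval that includes equality. These genes and Runx3 were named after their values were seen.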
